A study of Homo sapiens with 9 samples.

Results

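The genes described here are 10 members of the Notch signalling pathway: the target genes HES5, HES1, HES4 and HEY1, the receptors NOTCH1, NOTCH2 and NOTCH3, and the ligands JAG1, JAG2 and DLL1. They were chosen on the values of HES5, which was far higher in both clones of the study than in parental cells, and all 10 symbols matched 1 Ensembl gene ID each among the 60683 genes counted. The study measured total RNA, depleted of ribosomal RNA, in HEK293T cells, a human embryonic kidney line carrying the large T antigen of SV40. Parental cells were the line from which the others were made. Clone 37 and clone 15 each descended from 1 sorted cell after the piggyBac transposon had placed a pair of luciferase reporters in the genome. These were ATG-(CAG)60-Myc-NLuc, with 60 CAG units, and ATG-(CAG)0-Myc-FLuc, with none. Clone 37 was picked for high and clone 15 for low reporter expression, and each of the 3 groups had 3 libraries. Each reporter level is represented by 1 clone, so reporter level and clone cannot be told apart. Reads were 75 bases long for parental cells and clone 37 and 100 bases for clone 15, a difference in length that cannot be told apart from the clone itself.

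Notch receptors are membrane proteins that bind Jagged and Delta-like ligands on neighbouring cells. Ligand binding leads ADAM proteases and then gamma-secretase to release the intracellular domain, which enters the nucleus, joins the DNA-binding protein RBPJ and a Mastermind coactivator, and turns on target genes. HES and HEY genes, the best known of these targets, encode basic helix-loop-helix repressors that in turn hold down proneural genes in the developing nervous system. HES genes also answer to other inputs, among them BMP and Hedgehog signalling.

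The promoters of HES5, HES1 and HES4 are shown because RBPJ, the DNA-binding partner of Notch, binds the letters TGGGAA, which all of them hold. RefSeq windows on GRCh38.p14 covering 250 bases before and 50 bases after the start site matched 8 of the 10 genes, all but HEY1 and DLL1. The bases before the start site read as follows on the strand of each gene, 5′ to 3′, with matches to TGGGAA or its complement in capitals. The HES5 stretch is chr1:2530264-2530513, minus strand.
HES5: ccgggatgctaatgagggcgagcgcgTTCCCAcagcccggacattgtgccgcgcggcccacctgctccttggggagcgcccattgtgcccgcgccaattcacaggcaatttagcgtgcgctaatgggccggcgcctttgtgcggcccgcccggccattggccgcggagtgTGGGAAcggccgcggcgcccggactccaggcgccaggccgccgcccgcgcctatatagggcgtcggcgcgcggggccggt
The HES1 stretch is chr3:194135898-194136147, plus strand.
HES1: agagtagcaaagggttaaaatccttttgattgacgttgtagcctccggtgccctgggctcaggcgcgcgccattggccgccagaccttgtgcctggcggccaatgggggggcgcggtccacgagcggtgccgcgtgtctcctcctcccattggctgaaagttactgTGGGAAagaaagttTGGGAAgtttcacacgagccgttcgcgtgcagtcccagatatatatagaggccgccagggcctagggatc
The HES4 stretch is chr1:1000098-1000347, minus strand.
HES4: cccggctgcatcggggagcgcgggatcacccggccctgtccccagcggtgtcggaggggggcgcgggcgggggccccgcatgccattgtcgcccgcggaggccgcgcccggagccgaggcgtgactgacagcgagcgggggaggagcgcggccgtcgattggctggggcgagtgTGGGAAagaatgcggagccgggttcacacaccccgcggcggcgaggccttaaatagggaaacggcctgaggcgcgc
HES5 held 2 matches, beginning 80 bases before the start on its own strand and 224 bases before it on the other. HES1 held 2 on its own strand, 84 and 70 bases before the start, and HES4 held 1, 76 bases before it. Searching both strands of all 35116 windows, 24.0% held TGGGAA. The longer form GTGGGAA, which contains the core, occurred in 6.25% of windows, and was present at 2 places in HES5 and at 1 place each in HES1 and HES4. None of the windows of NOTCH1, NOTCH2, NOTCH3, JAG1 and JAG2 held the core. HES proteins bind N boxes (CACNAG) and class C sites (CACGNG), which can overlap where the letters are CACGAG. HES1, known to repress its own gene, held 4 N boxes and 4 class C sites, while HES5 and HES4 held neither. Over all windows 38.0% held an N box and 30.5% a class C site. These matches describe letters only and no binding was measured.

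Gene counts came to 10334090 to 38093340 per library, with clone 15 (at least 18654063) deeper than every other library. All 10 listed genes known from HEK293 lines were above 1 CPM (the gene's counts over all gene counts of the library, scaled to 1000000) in all 9 libraries. Their sum differed between the groups, at 1430 to 1720 CPM in parental cells, 932 to 1010 in clone 37 and 4170 to 4330 in clone 15. That difference lay in the neurofilament genes, which neurons also express: NEFM averaged 559, 137 and 2730 CPM in the same order and NEFL 235, 60.7 and 716. Both fell in clone 37 (log2 fold changes of -2.05 ± 0.10 and -1.98 ± 0.07, SE) and rose in clone 15 (2.25 ± 0.12 and 1.57 ± 0.10). The other 8 markers summed to 739 to 835 CPM in parental cells, 734 to 809 in clone 37 and 771 to 806 in clone 15. Parental replicate 2 and clone 15 replicate 2 stood furthest from their replicates, with a chi-square per degree of freedom of 8.19 to 11.6 against them, where pairs without these libraries gave 1.77 to 4.53. Clone 15 replicate 2 was the highest clone 15 library for 10 of 10 Notch genes, and its GC-rich genes (60% GC or more, 2199 genes) lay 0.17 above the clone mean on the log2 scale, against -0.09 and -0.07 in the other replicates. The 5 fibroblast markers summed to 35.6 to 38.1 CPM in parental cells, 19.2 to 21.3 in clone 37 and 54.9, 75.0 and 169 in clone 15 replicates 1, 2 and 3. Among them COL1A2 had 0 counts in all parental and clone 37 libraries and 5.59, 12.2 and 56.8 CPM in clone 15, and COL1A1 reached 48.3, 61.4 and 108 CPM there. A count of 0 allows up to 0.29 CPM in the shallowest library, for counting error only. LUM, in contrast, averaged 2.14 CPM in parental cells, 0.413 in clone 37 and 0.871 in clone 15. DCN averaged 0.0788, 0.0304 and 0.504 CPM in the same order of groups, and PDGFRB 0.482, 0.299 and 0.829 CPM. Endothelial markers summed to 0.647 to 0.833 CPM in parental cells, 0.810 to 0.968 in clone 37 and 1.5 to 2.60 in clone 15. Neuron markers, a list without the neurofilament genes, summed to 12.2 to 18, 17.2 to 19.9 and 10.3 to 10.6 CPM in the same order and blood markers to 1.30 to 1.58, 1.35 to 2.01 and 0.945 to 1.18, with CD3E and SLC17A6 at 0 counts in every library. The part of these differences in the values below was not tested, but each call was also made without each library in turn, and for the genes described below the calls lost that way are given.

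HES5 (ENSG00000197921, chromosome 1, 2528745 to 2530245) encodes a repressor that keeps neural progenitors undifferentiated. It was measured at 5.46, 5.47 and 4.90 CPM in parental replicates 1, 2 and 3, from 59, 76 and 64 counts. Clone 37 gave 28.9, 32.6 and 24.5 CPM. Clone 15 gave 45.3, 56.0 and 38.3 CPM, from 1725, 1380 and 714 counts. Every clone 15 library thus stood above every clone 37 library, and these above every parental library. The fitted difference from parental cells was 2.41 on the log2 scale (5.32-fold) in clone 37 and 3.11 (8.64-fold) in clone 15. These values chose the 10 genes and carry no test here. Over the alternative fits and left-out libraries they ranged from 2.27 to 2.49 and from 2.89 to 3.24. The comparison between the clones did not choose the genes. In it HES5 was lower in clone 37 than in clone 15 by a log2 difference of -0.70 ± 0.14 (SE; adjusted p = 0.00166, edgeR's quasi-likelihood test with Benjamini-Hochberg adjustment over all genes), so the clone with low reporter expression had more HES5. In bulk RNA, fewer cells carrying a transcript and less of it per cell cannot be told apart. The labels do not say whether replicates were separate cultures, and p-values measure only the spread between these libraries.

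**Figure D1:**
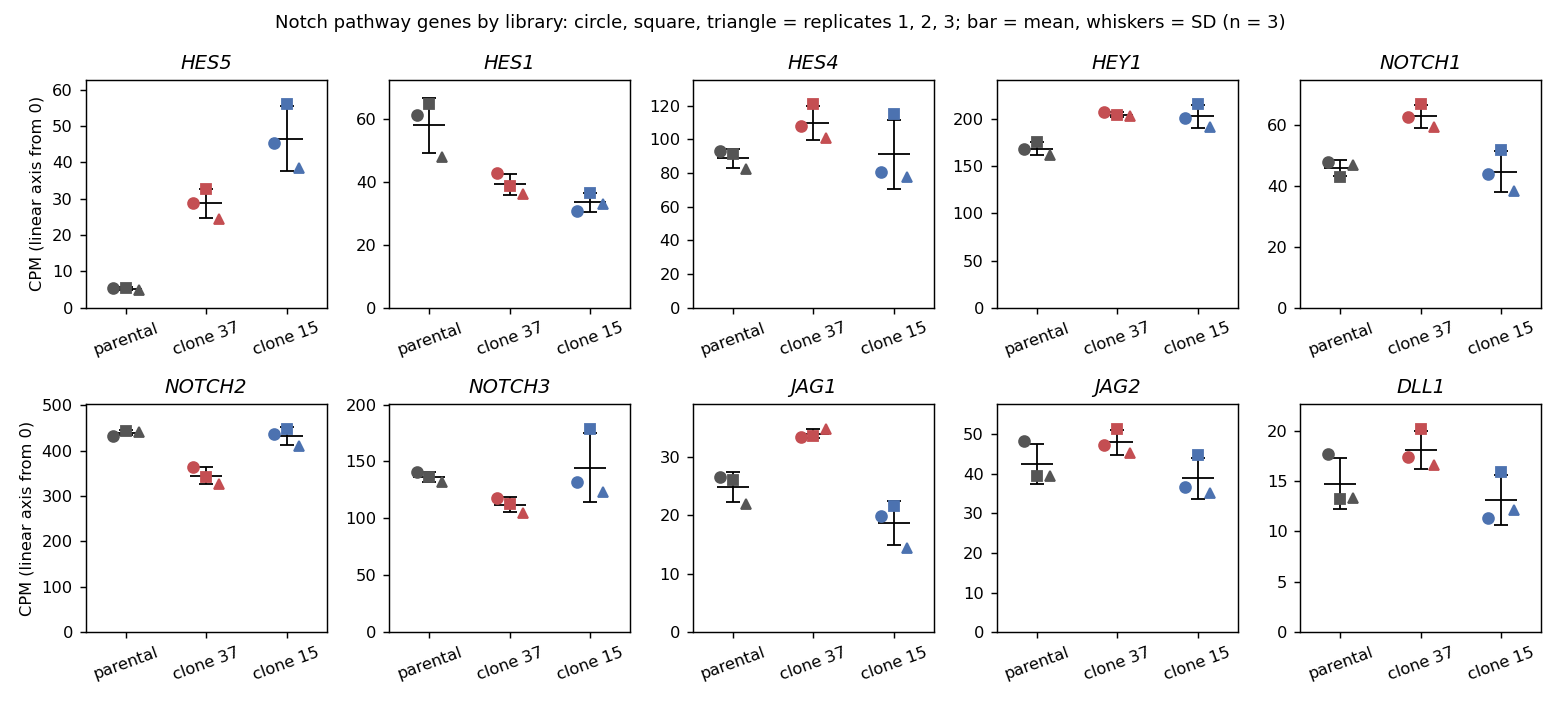
CPM (linear axes from 0) of the 10 Notch pathway genes in each library of parental cells, clone 37 and clone 15; symbols are replicates, bars means and whiskers SD (n = 3). HES5 has means of 5.27, 28.7 and 46.5 CPM, while JAG1 is highest in clone 37 and lowest in clone 15.

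The other target genes had patterns of their own. HES1 (ENSG00000114315, chromosome 3, 194136145 to 194138732), the most widely expressed HES target, was lower in both clones. It stood at 61.1, 64.6 and 47.8 CPM in parental cells, 42.6, 38.7 and 36.0 in clone 37 and 30.8, 36.5 and 32.9 in clone 15. The parental libraries were above all 6 clone libraries, and the clones overlapped each other. HES1 fell by 0.59 ± 0.11 (SE, log2) in clone 37 (adjusted p = 0.000768) and by 0.83 ± 0.11 in clone 15 (adjusted p = 2.37e-06). Between the clones the log2 difference was 0.23 ± 0.08, higher in clone 37 (adjusted p = 0.014), and this call was lost in a fit of all 9 libraries (0.23, adjusted p = 0.0759), without clone 37 replicate 1 (0.18) and without clone 15 replicate 1 (0.17). HES5 and HES1 thus lay on opposite sides of their parental levels in both clones.

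HEY1 (ENSG00000164683), on chromosome 8, encodes a transcriptional repressor with roles in heart and vessel development. Its parental libraries held 168, 176 and 162 CPM, those of clone 37 held 208, 204 and 203, and those of clone 15 held 201, 216 and 192. Both clones lay above parental cells in every library. HEY1 rose by 0.26 ± 0.06 (SE, log2) in clone 37 (adjusted p = 0.00116) and by 0.24 ± 0.08 in clone 15 (adjusted p = 0.0183), with a difference between the clones of 0.02 ± 0.05 (adjusted p = 0.768). The clone 15 call was lost with no filter on low counts (0.23), with unstranded counts (0.18), without parental replicate 1 (0.20) and without parental replicate 3 (0.18).

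HES4 (ENSG00000188290, chromosome 1, 998962 to 1000172) is a member of the family that mice lack, and its transcript has a GC content of 73.9%. It stood at 93.0, 91.3 and 82.5 CPM in parental cells and at 108, 121 and 101 in clone 37. Clone 15 gave 80.7, 115 and 77.6, with replicate 2 above the parental range and the others below it. In clone 37 HES4 was above every parental library and rose by 0.28 ± 0.07 (SE, log2; adjusted p = 0.00249), but the call was lost in a fit of all 9 libraries (0.28, adjusted p = 0.118), after GC and length trends were removed (0.08) and without parental replicate 3 (0.18). In clone 15 its log2 difference was 0.00 ± 0.13 (adjusted p = 0.991). Between the clones HES4 differed by 0.28 ± 0.18 (adjusted p = 0.243), and it was called without clone 15 replicate 2 (0.45, adjusted p = 5.1e-10), with no filter on low counts (0.26, adjusted p = 0.0361) and with GC and length trends removed (0.26, adjusted p = 1.08e-05).

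Of the 3 receptors, 3 were called against parental cells in clone 37, where 54.0% of all tested genes were, and 0 in clone 15, where 51.4% were. Compared directly, the clones differed in NOTCH1 and NOTCH2, while NOTCH3 did not pass. NOTCH1 (ENSG00000148400, chromosome 9, 136494433 to 136545786), the receptor known for its role in T-cell fate, held 47.8, 42.8 and 46.8 CPM in parental cells, 62.5, 66.7 and 59.1 in clone 37 and 43.9, 51.7 and 38.2 in clone 15. Every clone 37 library was above all others. NOTCH1 rose by 0.43 ± 0.07 (SE, log2) in clone 37 (adjusted p = 4.95e-05), differed by -0.06 ± 0.10 in clone 15 (adjusted p = 0.603), and was 0.49 ± 0.08 higher in clone 37 than in clone 15 (adjusted p = 1.75e-05).

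NOTCH2 (ENSG00000134250, chromosome 1, 119911553 to 120069626), a receptor with roles in kidney and liver, moved the other way. Parental libraries gave 433, 443 and 442 CPM, clone 37 gave 365, 343 and 327, and clone 15 gave 437, 449 and 410. All clone 37 libraries lay below all others. NOTCH2 fell by 0.38 ± 0.06 (SE, log2) in clone 37 (adjusted p = 5.67e-05), differed by -0.06 ± 0.08 in clone 15 (adjusted p = 0.606) and was lower in clone 37 than in clone 15 by a log2 difference of -0.32 ± 0.05 (adjusted p = 1.01e-05). Of the 75-base words of its longest transcript, 2.87% occur in another gene, and how many of its reads were left uncounted was not measured.

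NOTCH3 (ENSG00000074181, chromosome 19, 15159038 to 15200981), the receptor of vascular smooth muscle, held 141, 136 and 132 CPM in parental cells, 118, 113 and 105 in clone 37 and 132, 179 and 123 in clone 15. Clone 37 was again below every other library. NOTCH3 fell by 0.31 ± 0.06 (SE, log2) in clone 37 (adjusted p = 0.000279) and differed by 0.05 ± 0.11 in clone 15 (adjusted p = 0.719). Between the clones the difference of -0.36 ± 0.15 did not pass (adjusted p = 0.0865), although it did in 7 alternatives, among them without clone 15 replicate 2 (-0.21, adjusted p = 0.000287), without clone 15 replicate 3 (-0.47) and in a fit of all 9 libraries (-0.37, adjusted p = 0.00783). As a share of the 3 receptors per kilobase of exon, NOTCH1 made up 9.79% ± 0.538 (SD, n = 3) in parental cells, 15.7% ± 0.809 in clone 37 and 9.44% ± 0.440 in clone 15. NOTCH2 remained the most abundant receptor per kilobase at 58.0%, 53.3% and 56.9%.

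The ligands JAG1, JAG2 and DLL1 were all higher in clone 37 than in clone 15. JAG1 stood on opposite sides of parental cells in the clones. JAG1 (ENSG00000101384, chromosome 20, 10637684 to 10673999), the ligand mutated in Alagille syndrome, held 26.6, 26.0 and 22.0 CPM in parental cells. Clone 37 gave 33.5, 33.7 and 34.9 CPM and clone 15 gave 19.9, 21.6 and 14.4, so the groups did not overlap. JAG1 rose by 0.43 ± 0.09 (SE, log2) in clone 37 (adjusted p = 0.000522) and fell by 0.44 ± 0.13 in clone 15 (adjusted p = 0.00754). The clone 15 call was lost without clone 15 replicate 3, the library with the highest fibroblast marker sum (-0.28, adjusted p = 0.0629), and after thinning to the smallest library (-0.32, adjusted p = 0.182). Between the clones JAG1 differed by 0.86 ± 0.11 (adjusted p = 3.91e-07), and an antisense gene overlaps its exons on the other strand.

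JAG2 (ENSG00000184916, chromosome 14, 105140981 to 105168824), a ligand of limb and T-cell development, held 48.3, 39.6 and 39.4 CPM in parental cells, 47.2, 51.5 and 45.4 in clone 37 and 36.6, 44.8 and 35.2 in clone 15. Parental libraries overlapped both clones, which were apart from each other. Its log2 difference from parental cells was 0.16 ± 0.08 (SE) in clone 37 (adjusted p = 0.123) and -0.15 ± 0.10 in clone 15 (adjusted p = 0.211). JAG2 was higher in clone 37 than in clone 15 by 0.31 ± 0.08 (adjusted p = 0.00189). A same-strand transcript shares exons with JAG2, and how many reads this left uncounted was not measured.

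DLL1 (ENSG00000198719, chromosome 6, 170282206 to 170306565), a ligand of somite and neural development, had the fewest CPM of the ligands: 17.7, 13.2 and 13.3 in parental cells, 17.4, 20.2 and 16.6 in clone 37 and 11.3, 15.9 and 12.1 in clone 15. Here too parental libraries overlapped both clones. DLL1 differed by 0.28 ± 0.12 (SE, log2) in clone 37 (adjusted p = 0.0661) and by -0.20 ± 0.14 in clone 15 (adjusted p = 0.245), and it was 0.48 ± 0.12 higher in clone 37 than in clone 15 (adjusted p = 0.00135). Without parental replicate 1, the highest parental library for both ligands, DLL1 (0.41, adjusted p = 0.0113) and JAG2 (0.24, adjusted p = 0.0216) were called higher in clone 37. After thinning, the DLL1 difference between the clones was 0.33 (adjusted p = 0.0679).

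**Figure D2:**
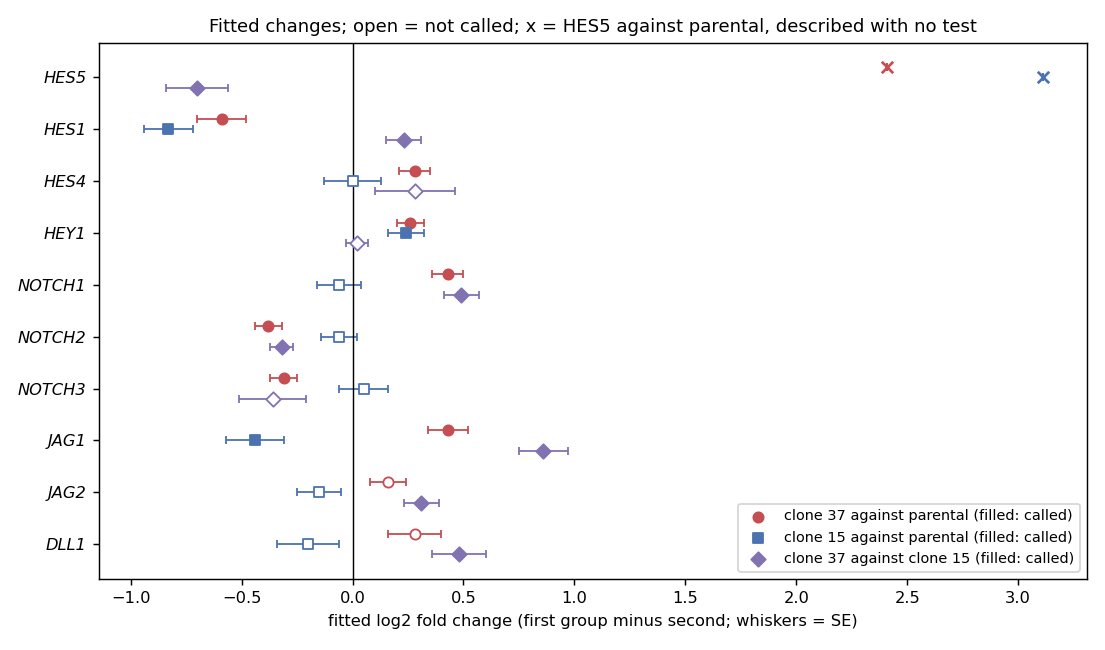
Fitted log2 fold changes (first group minus second; whiskers SE) of the 10 genes in the 3 comparisons, filled where the adjusted p was under 0.05; crosses mark HES5 against parental cells, shown with no test. JAG1 lies at 0.43 in clone 37 and -0.44 in clone 15, and HES1 at -0.59 and -0.83.

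Calls rest on an adjusted p under 0.05. Of the 9 genes other than HES5, 7 were called in clone 37 against parental cells, 4 higher and 3 lower, where the share over all 16501 tested genes was 54.0%, made up of 26.7% higher and 27.3% lower. In clone 15 against parental cells 3 of the 9 were called, 1 higher and 2 lower, beside 51.4% of 17703 genes, 25.1% higher and 26.2% lower. Between the clones 6 of the 9 were called, 5 higher and 1 lower in clone 37, beside 57.7% of 17712 genes, 28.7% higher and 29.0% lower. The share between the clones, 66.7% of the 9, was near that of all genes. Their median log2 fold changes were 0.26, -0.06 and 0.28, where all tested genes had medians of 0.0238, 0.0153 and -0.00152. The size of the change, as the median of absolute log2 values, was 0.31, 0.15 and 0.32 for the 9 genes and 0.32, 0.36 and 0.35 for all tested genes. The comparisons with parental cells share the parental libraries.

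Per kilobase of exon, HES4 was the most abundant of the 10 genes in parental cells (79.6 ± 5.04 CPM per kb, SD, n = 3), followed by HEY1 (52.2 ± 2.22), HES1 (28.0 ± 4.28) and NOTCH2 (26.1 ± 0.319). HES1 and NOTCH2 overlapped, and so did DLL1 (4.57), NOTCH1 (4.41) and HES5 (4.04) further down, while NOTCH3 (14.5) and JAG2 (6.64) were apart from their neighbours. By this measure JAG1 (2.68) was the lowest of the 10 in each group. HES5 came ninth in parental cells. In clone 37 it came to 21.9 ± 3.10 CPM per kb, overlapping NOTCH2 at 20.5 ± 1.14, which overlapped HES1 at 19.0 ± 1.59. In clone 15 HES5 came to 35.6 ± 6.85, apart from HEY1 above it (62.8 ± 3.66) and NOTCH2 below it (25.7 ± 1.20). These places depend on the length used, which was all exon bases of a gene. NOTCH2 has 16807 of these but a longest transcript of 11389 bases, and JAG1 has 9298 and 5940. HES5 has 1306 by either, so with transcript lengths its place relative to NOTCH2 and JAG1 can differ.

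The make-up of the target genes therefore differed between groups, through the values of HES5 that chose the genes and through HES1. HES5 was 2.47% ± 0.0258 (SD, n = 3) of the summed CPM per kb of HES5, HES1, HES4 and HEY1 in parental cells, 10.8% ± 0.865 in clone 37 and 18.1% ± 1.10 in clone 15. HES1 made up 17.1% ± 1.49, 9.36% ± 0.704 and 8.32% ± 0.752. HEY1 had group means of 31.9%, 31.4% and 32.3% of the sum and ranged from 29.0% to 34.2% over the libraries, and HES4 had means of 48.6%, 48.5% and 41.3%. The ratio of HES5 to HES1 per kb was 0.145 ± 0.0145 in parental cells, 1.16 ± 0.149 in clone 37 and 2.19 ± 0.312 in clone 15. By this measure HES5 was the higher of the pair in every library of both clones. The ratio depends on the length used: HES1 has 2062 bases of exon but a longest transcript of 1578, while HES5 has 1306 by either. In CPM, not divided by length, HES1 was above HES5 in every clone 37 library and below it in every clone 15 library.

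**Figure D3:**
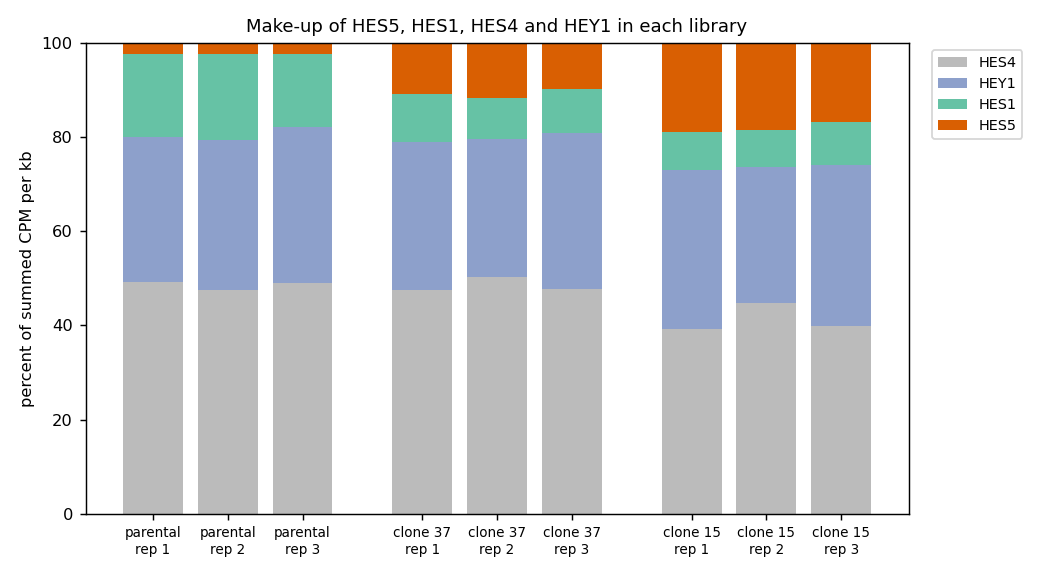
Stacked bars give the percent of the summed CPM per kilobase held by HES4, HEY1, HES1 and HES5 in each library. The HES5 segment covers 2.44% to 2.49% in parental cells, 9.90% to 11.6% in clone 37 and 16.8% to 18.8% in clone 15.

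The genes around HES5 were examined to see how far its difference was shared along the chromosome. Over the 100 tested genes that flank HES5, spanning 8.07 Mb, the median log2 fold change was 0.36 in clone 37 and 0.41 in clone 15. Of the nearest 10 tested genes, between positions 2321253 and 3208664 of chromosome 1, 5 passed as higher and none as lower in clone 37, whereas clone 15 had 5 higher and 1 lower. The shares over the whole table were 26.7% higher with 27.3% lower for clone 37, and 25.1% with 26.2% for clone 15. PANK4, a metabolite phosphatase gene next to HES5, was 0.44 ± 0.07 (SE, log2) higher in clone 37 (adjusted p = 4.04e-05) and 0.49 ± 0.09 higher in clone 15 (adjusted p = 3.73e-05). On the other side, PRXL2B differed by 0.21 ± 0.11 and 0.02 ± 0.12 and was not called. The named neighbours were chosen after their values were seen.

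The gene with the next largest difference beside HES5 was ENSG00000272449, a long intergenic non-coding RNA that runs the opposite way (chromosome 1, 2530064 to 2547460, plus strand). Its span overlaps that of HES5 by 182 bases, and their annotated exons do not overlap. It stood at 3.89, 2.23 and 2.76 CPM in parental cells, 6.76, 6.77 and 7.45 in clone 37 and 9.14, 16.3 and 13.0 in clone 15. The order of the groups was that of HES5, with no overlap. It was higher by 1.24 ± 0.20 (SE, log2) in clone 37 (adjusted p = 5.47e-05) and by 2.10 ± 0.22 in clone 15 (adjusted p = 3.26e-07), and lower in clone 37 than in clone 15 by a log2 difference of -0.85 ± 0.18 (adjusted p = 0.000823). The counts are strand-specific, and the HES5 gene had 0 to 12 counts on its opposite strand per library.

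**Figure D4:**
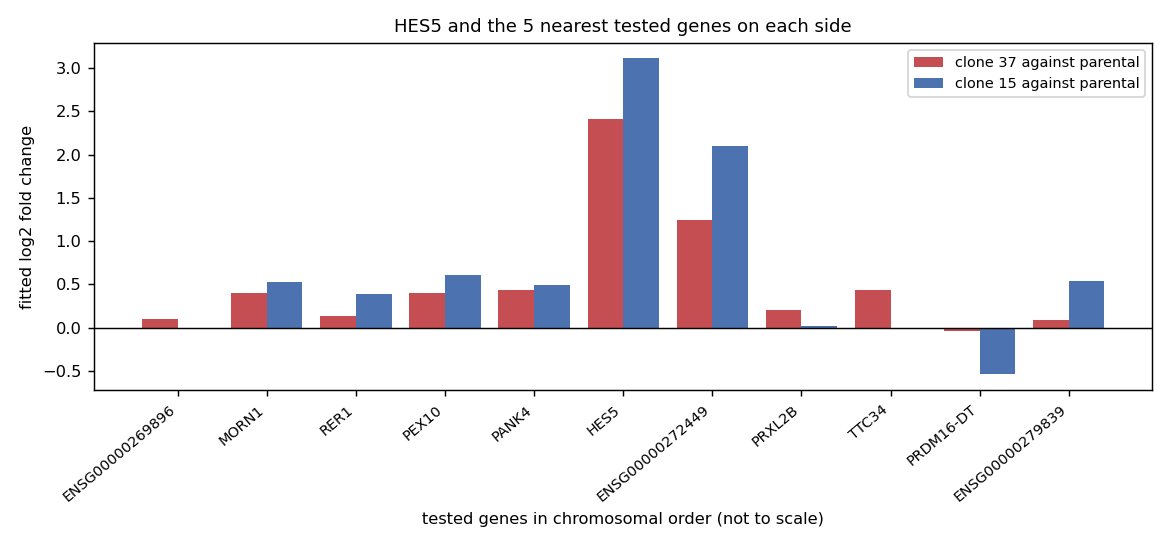
Fitted log2 fold changes of HES5 and the 5 nearest tested genes on each side, in chromosomal order, for clone 37 and clone 15 against parental cells. HES5 (2.41 and 3.11) and the divergent RNA ENSG00000272449 (1.24 and 2.10) stand above the other neighbours, which lie between -0.54 and 0.61.

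The other genes sat in surroundings of varied direction. The median change of up to 100 tested genes around each was 0.34 and 0.48 in clones 37 and 15 for HES4, 0.23 and -0.56 for HEY1, -0.18 and 0.26 for HES1, and 0.24 and 0.31 for NOTCH1. It was -0.24 and -0.25 for NOTCH2, 0.23 and 0.26 for NOTCH3, 0.32 and 0.40 for JAG1, -0.38 and 0.23 for JAG2, and 0.17 and 0.11 for DLL1. Among the called changes, NOTCH3 in clone 37 and HES1, HEY1 and JAG1 in clone 15 had the sign opposite to that median, and the others had the same sign. The share of the surroundings in any change was not tested.

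Likeness to HES5 was the Pearson r of log2 CPM over the 9 libraries, with CPM here scaled by TMM factors. Among 12941 protein-coding genes with a mean of at least 1 CPM, the most like HES5 were RCCD1 (r 0.996), POLG (0.993), TRAF4 (0.991), LGALS3BP (0.991) and BLTP2 (0.991). All of them, being chosen for this likeness, were lowest in parental cells and highest in clone 15. RCCD1 (from position 90954870) and POLG (from 89305198) lie near each other on chromosome 15. TRAF4 (from 28743984) and BLTP2 (from 28614440) do so on chromosome 17. LGALS3BP, which encodes a secreted glycoprotein, went from a mean of 28.0 CPM to 89.3 and 108 CPM. Of the other Notch genes HEY1 had an r of 0.86 with HES5, which ranked 1001 of the 12941, and HES1 one of -0.88, which ranked 12013, while HES4 had 0.24, NOTCH1 0.18 and the rest -0.40 to -0.06. The libraries form 3 groups that differ in depth and read length, and these values describe the group pattern only.

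The rest of the pathway was read from lists of 80 further genes, of which 67 were tested in clone 37 against parental cells. They include 9 partner and input genes of HES proteins (ID, SOX2, BMP and GLI genes). In clone 37 47 were called, 22 higher and 25 lower, which is 70.1% of those tested beside 54.0% of all tested genes. In clone 15 33 of 68 were called, 14 higher and 19 lower, which is 48.5% beside 51.4% of all tested genes. Between the clones 44 of 68 were called, 20 higher and 24 lower in clone 37, which is 64.7% beside 57.7%. The counts by list below stand beside the same shares of all tested genes, and lists of this size are described only. The median log2 fold changes were -0.0644, -0.0394 and -0.00416. NRARP, DTX1 and DLL3 each stand in a pair of lists and are counted once here.

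**Figure D5:**
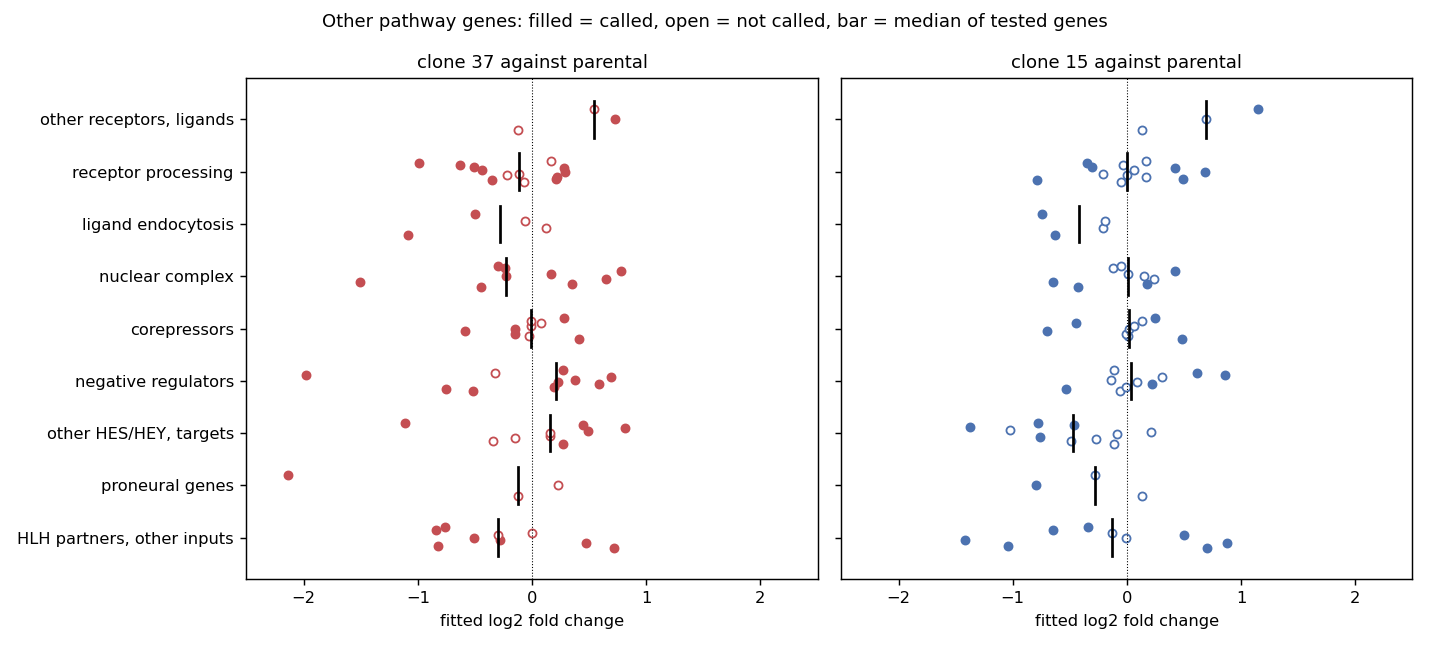
Each point is the fitted log2 fold change of 1 tested pathway gene in clone 37 (left) or clone 15 (right) against parental cells, by list; filled points had an adjusted p under 0.05 and bars are list medians. The nuclear complex list has 9 of 9 filled points in clone 37 and 4 of 9 in clone 15.

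In the nucleus, 9 of 9 coactivator complex genes were called in clone 37, 4 higher and 5 lower, and 4 of 9 (44.4%) in clone 15, 2 in each direction, beside 54.0% and 51.4% of all tested genes. RBPJ, the DNA-binding factor, stood at 227 ± 16.8 CPM (SD, n = 3) in parental cells, 169 ± 5.53 in clone 37 and 172 ± 6.55 in clone 15. It fell by 0.45 ± 0.06 (SE, log2; adjusted p = 1.38e-05) and by 0.43 ± 0.08 (adjusted p = 0.000124), although with GC and length trends removed the clone 15 value was -0.13 (adjusted p = 0.127). MAML2, a Mastermind coactivator, fell by 1.51 ± 0.11 in clone 37 (adjusted p = 5.84e-09) and by 0.65 ± 0.13 in clone 15 (adjusted p = 0.000207). Its relative MAML3 rose by 0.65 ± 0.09 in clone 37 (adjusted p = 6.45e-06), and the acetyltransferase gene KAT2A rose by 0.78 ± 0.08 there and by 0.42 ± 0.09 in clone 15. Of 9 corepressor genes, 2 rose and 3 fell in clone 37, and 2 rose and 2 fell in clone 15. SPEN, an RBPJ corepressor, rose by 0.41 ± 0.07 and 0.48 ± 0.10, and CIR1, another, fell by 0.59 ± 0.09 and 0.70 ± 0.11. L3MBTL3 differed by 0.08 ± 0.07 in clone 37 (adjusted p = 0.405), fell by 0.45 ± 0.09 in clone 15 (adjusted p = 0.000315) and was 0.53 ± 0.08 higher in clone 37 than in clone 15 (adjusted p = 2.21e-06). HDAC1, a histone deacetylase gene, was lower in clone 37 than in clone 15 by a log2 difference of -0.17 ± 0.05 (adjusted p = 0.00729), a call lost without clone 37 replicate 2 (-0.13). It is 1 of the 3 corepressor genes called lower in clone 37 against parental cells (-0.15, adjusted p = 0.0293), and that call was lost without any one of clone 37 replicates 1, 2 and 3 (adjusted p = 0.0563, 0.176 and 0.0615), with no filter on low counts (0.122), with unstranded counts (0.0515), in a fit of all 9 libraries (0.0564) and with the replicate block (0.0808).

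At the membrane, 13 of 14 genes that process receptors were tested. In clone 37 4 rose and 5 fell, and in clone 15 3 rose and 3 fell. APH1B and APH1A, subunits of gamma-secretase, fell by 0.99 ± 0.12 (SE, log2; adjusted p = 2.94e-06) and 0.63 ± 0.06 (adjusted p = 3.06e-07) in clone 37. In clone 15 APH1A differed by -0.03 ± 0.09 (adjusted p = 0.772) and was called lower with GC and length trends removed (-0.22, adjusted p = 0.0213). APH1B differed there by -0.35 ± 0.13 (adjusted p = 0.0249), a call lost after thinning (-0.21), with GC and length trends removed (-0.20) and without clone 15 replicate 2 (-0.28) or 3 (-0.33). Both subunits were lower in clone 37 than in clone 15, by log2 differences of -0.65 ± 0.13 and -0.60 ± 0.07. ADAM17, a receptor protease, fell by 0.35 ± 0.06 in clone 37 and by 0.79 ± 0.08 in clone 15 (-0.83 to -0.49 over the alternatives). RFNG, a glycosyltransferase of receptors, rose by 0.68 ± 0.10 in clone 15 (adjusted p = 4.58e-06). Its call as higher in clone 37 (0.29, adjusted p = 0.0167) was lost without clone 37 replicate 1 (adjusted p = 0.0926) or 2 (0.0671) and with unstranded counts (0.0552). Of the 4 ubiquitin ligases that act on ligands in the sending cell, 2 fell in each clone. MIB1 went from 418 ± 16.6 CPM (SD, n = 3) to 200 ± 1.06 in clone 37 and 277 ± 11.9 in clone 15. It fell by 1.09 ± 0.06 (adjusted p = 1.25e-10) and 0.63 ± 0.09 (adjusted p = 1.07e-06). Over the alternatives its clone 15 value ranged from -0.69 to -0.3. NEURL1B fell by 0.50 ± 0.11 and 0.74 ± 0.12. MIB2 was 0.33 ± 0.12 higher in clone 37 than in clone 15 (adjusted p = 0.0252), a call lost after thinning (0.29) and without any one of clone 37 replicates 1 and 2 or clone 15 replicates 1 and 3 (0.19 to 0.32).

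Of 12 negative regulators 10 were tested, and 6 rose and 3 fell in clone 37, where clone 15 had 3 that rose and 1 that fell. DTX3, a ubiquitin ligase gene of the Deltex family, moved in opposite directions: its mean was 24.4 ± 3.28 CPM (SD, n = 3) in parental cells, 6.28 ± 0.848 in clone 37 and 45.0 ± 4.81 in clone 15. It fell by 1.98 ± 0.13 (SE, log2; adjusted p = 1.2e-09) and rose by 0.86 ± 0.10 (adjusted p = 1.55e-07), and the clones differed by -2.84 ± 0.11 (adjusted p = 3.29e-18). DTX4, of the same family, differed by 0.61 ± 0.23 in clone 15 (adjusted p = 0.0287), a call lost with DESeq2 (adjusted p = 0.0606), with GC and length trends removed (0.53) and without parental replicate 1 (0.50) or 3 (0.48) or clone 15 replicate 1 (0.56). Between the clones DTX4 was lower in clone 37 by a log2 difference of -0.93 ± 0.21 (adjusted p = 0.000521). NUMBL, an endocytic adaptor gene, fell by 0.75 ± 0.10 in clone 37 and by 0.53 ± 0.10 in clone 15.

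Among other HES and HEY genes and cited targets, 4 of 9 tested rose and 1 fell in clone 37, and 0 of 10 rose and 4 fell in clone 15. CCND1, the gene of cyclin D1, stood at 59.1 ± 3.01 CPM (SD, n = 3) in parental cells, 106 ± 1.04 in clone 37 and 23.5 ± 2.65 in clone 15. It rose by 0.81 ± 0.06 (SE, log2; adjusted p = 7.61e-09) and fell by 1.37 ± 0.10 (adjusted p = 2.04e-11), opposite directions as for JAG1. SOX9 fell in both clones, by 1.11 ± 0.10 (adjusted p = 8.61e-08) and 0.78 ± 0.11 (adjusted p = 2.78e-06). HES7 was at 2.17, 2.46 and 1.30 CPM on average, and its clone 15 difference of -0.76 ± 0.30 (adjusted p = 0.038) was lost in 6 alternatives, DESeq2 among them (adjusted p = 0.0769). Between the clones HES7 was higher in clone 37 by a log2 difference of 0.92 (0.72 to 1.04 over the alternatives). Of the 8 genes known to be held down by HES proteins, which are proneural genes and the ligand DLL3, 3 had enough counts to test. ATOH1 fell by 2.14 ± 0.43 in clone 37 from a mean of 1.32 CPM to 0.298 (adjusted p = 0.000402), differed by -0.28 ± 0.34 in clone 15 (adjusted p = 0.517) and was lower in clone 37 than in clone 15 by a log2 difference of -1.88 ± 0.47 (adjusted p = 0.00114). NEUROG2 differed by 0.23 ± 0.31 in clone 37 (adjusted p = 0.548) and by -0.80 ± 0.33 in clone 15 (adjusted p = 0.0417). The latter call was lost with unstranded counts (-0.47), thinning (-0.37), DESeq2 (adjusted p = 0.0997), no filter on low counts (adjusted p = 0.0868) and a replicate block (adjusted p = 0.0617), and without any one of the parental replicates 1 and 3 or the clone 15 replicates. Between the clones NEUROG2 was 1.03 ± 0.32 higher in clone 37 (adjusted p = 0.00639), a call lost after thinning (0.67) and without clone 37 replicate 1 (0.88) or 3 (0.92).

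The remaining receptor and ligands were scarce. NOTCH4 averaged 0.305 CPM in parental cells, 1.01 in clone 37 and 0.390 in clone 15, too low to test against parental cells. Between the clones it was 1.24 ± 0.44 (SE, log2) higher in clone 37 (adjusted p = 0.0176), a call lost with unstranded counts (0.55, adjusted p = 0.0707), without clone 37 replicate 1 (0.91) and without clone 15 replicate 3 (1.00). Between 52.9% and 95.2% of the stranded counts at NOTCH4 lay on the other strand. DLL4, an endothelial ligand, averaged 1.53, 2.63 and 2.60 CPM. Its difference from parental cells was 0.73 ± 0.27 in clone 37 (adjusted p = 0.0298) and 0.69 ± 0.30 in clone 15 (adjusted p = 0.0544). The clones differed by 0.05 ± 0.25 (adjusted p = 0.864). The clone 37 call was lost with DESeq2 (adjusted p = 0.102), with unstranded counts (0.0594) and after thinning (0.0711). It was also lost without any one of parental replicates 1 and 3 or clone 37 replicates 1 and 3 (adjusted p = 0.0739 to 0.132). In clone 15 DLL4 was called in a fit of all 9 libraries (0.68, adjusted p = 0.0361), after thinning (0.96, adjusted p = 0.03), without parental replicate 2 (0.92) and without clone 15 replicate 2 (0.84). DLL3 was not called in any comparison, with log2 differences of -0.12, 0.13 and -0.25. DLK2, a non-canonical ligand, rose by 1.15 ± 0.23 in clone 15 (adjusted p = 0.000177), and by 0.58 with unstranded counts. It was lower in clone 37 than in clone 15 by a log2 difference of -0.61 ± 0.21 (adjusted p = 0.0148). That call was lost after thinning (-0.65) and without clone 37 replicate 2 (-0.45) or 3 (-0.57). Between 55.2% and 76.9% of the stranded counts at DLK2 lay on the other strand.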

How the data were processed

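Total RNA of 9 HEK293T libraries was sequenced as paired ends. The values are raw gene counts, deposited as 1 table per library and made by the authors with STAR 2.7.10a on hg38 after FastQC 0.11.9, per the submitters' processing notes; the annotation release is not given in the sources used here. Reads that map to several places are not counted. Column 4, the transcript strand, held 92.6% to 94.0% of stranded gene counts, and the 4 summary rows, which name no gene (40.3% to 49.1% of read pairs), were left out. CPM are counts scaled to 1000000 gene counts per library; CPM per kb divide by the exon union of GENCODE 29 (GRCh38), which also gave positions. Each comparison was fitted on its 6 libraries with edgeR 4.0.16 (filterByExpr, TMM, robust quasi-likelihood test, Benjamini-Hochberg over all tested genes) in R 4.3.3 and checked on simulated counts. Depth limits the precision of scarce genes. Alternatives were RLE, DESeq2 1.42.0, other filters, unstranded counts, all 9 libraries, a replicate block, thinning, GC and length trends, and each library left out. The members and lists were chosen with earlier results of these data known. Named genes are all members, the 2 most changed called genes of each pathway list and comparison, RBPJ, NOTCH4, DLL3 and DLL4. Also named are the NOTCH2 partial copies and the 5 genes most like HES5 (log2 of TMM-scaled CPM with a pseudocount of 0.1).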

Additional observations from a re-analysis of the deposited data

Results flagged for a closer look

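For 7 of the 10 genes the change from parental cells differed between the clones by the direct test of clone 37 against clone 15 (edgeR's quasi-likelihood test), beside 57.7% of all 17712 tested genes. On the log2 scale, clone 37 minus clone 15, HES5 differed by -0.70, NOTCH2 by -0.32, HES1 by 0.23, NOTCH1 by 0.49, JAG1 by 0.86, JAG2 by 0.31 and DLL1 by 0.48. All 3 ligands of the 10 genes were among them, each higher in clone 37. Of the further ligands tested, DLK2 was lower in clone 37 (-0.61), and DLL3 and DLL4 were not called. In JAG1 the changes from parental cells had opposite signs. Read length also differs between the clones and its part was not tested.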

How the results depend on the processing

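No direction of a called difference reversed under the alternatives. The number of genes called ranged from 7487 to 10027 in clone 37 against parental cells, from 7339 to 9778 in clone 15 against parental cells and from 8521 to 11033 between the clones. Of the 30 values of the 10 genes, 17 were called, 11 were not and 2 carry no test (HES5 against parental cells). Under alternatives that used all libraries the called values kept their call in 146 of 153 cases and lost it in 7, those not called gained one in 10 of 99, and HES5 in clone 15 moved to 2.89 with GC and length trends removed. With 1 library left out the call was kept in 96 of 102 cases and lost in 6, and one was gained in 5 of 66. The deviations of libraries with the same replicate number had correlations of -0.19 to 0.04. These also hold counting error and the outlying libraries, so they do not settle whether the numbers pair the libraries. A fit with the replicate number as a block called 8375, 8708 and 10490 genes, against 8903, 9092 and 10223 without it. In that fit HES4 (0.29, adjusted p = 1.67e-05) and NOTCH3 (-0.34, adjusted p = 4.3e-05) were called between the clones. After GC and length trends were removed JAG2 (-0.23, adjusted p = 0.0237) and DLL1 (-0.35, adjusted p = 0.033) were called lower in clone 15 than in parental cells. The depth of scarce genes such as NOTCH4 (1, 4 and 7 parental counts) limits what can be said of them.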

Other observations

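HES proteins pair with or are held back by ID proteins, and BMP and Hedgehog signals reach HES genes. A list of 9 such genes is among the pathway genes counted above. In clone 37 2 were called higher and 5 lower than in parental cells, and in clone 15 3 higher and 4 lower (77.8% called in each, beside 54.0% and 51.4% of all tested genes). The ID genes moved in both directions; ID1 and ID3 are named after their values were seen. ID1 rose by 0.72 ± 0.11 (SE, log2; adjusted p = 2.98e-05) in clone 37 and by 0.70 ± 0.13 (adjusted p = 0.000127) in clone 15, and ID3 rose by 0.47 ± 0.08 (adjusted p = 7.27e-05) and 0.88 ± 0.10 (adjusted p = 2.21e-07). ID2 went from 154 ± 8.01 CPM (SD, n = 3) to 88.5 ± 4.37 and 76.7 ± 3.14, and fell by 0.82 ± 0.06 (SE, log2) and 1.04 ± 0.08. ID4 fell by 0.28 ± 0.06 in clone 37 and by 1.42 ± 0.09 in clone 15, with a difference between the clones of 1.13 ± 0.07 (adjusted p = 6.14e-12). GLI1, a direct Hedgehog target, fell by 0.84 ± 0.17 (adjusted p = 0.000508) and 0.65 ± 0.18 (adjusted p = 0.00373). BMP4 rose by 0.50 ± 0.13 in clone 15 (adjusted p = 0.00203) and differed by -0.30 ± 0.14 in clone 37 (adjusted p = 0.0789), and in the latter it passed without parental replicate 3 (-0.41) and with GC and length trends removed (-0.37). Between the clones BMP4 was lower in clone 37 by a log2 difference of -0.80 ± 0.12 (adjusted p = 2.1e-06).

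The partial copies of NOTCH2 in the human genome share reads with NOTCH2, so their counts are uncertain. NOTCH2NLA averaged 1.58, 1.32 and 1.01 CPM in parental cells, clone 37 and clone 15, and NOTCH2NLC 5.82, 5.51 and 3.99. NOTCH2NLB had 0 counts in all 9 libraries, which sets no bound on its level, since reads that map to several places are not counted. The call of NOTCH2NLC in clone 15 (-0.56 ± 0.21, adjusted p = 0.0295) was lost without any one of parental replicates 1 and 3 or the clone 15 replicates.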
